A study of Mus musculus with 7 samples.

Results

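The ligands and receptors of axon guidance were examined in H3K27me3 peak lists of epidermal progenitor cells of newborn mice. H3K27me3, trimethylation of lysine 27 of histone H3, is written by Polycomb repressive complex 2 and goes with gene silencing. The genes comprised the Eph receptors and their ephrin ligands, the Slit ligands and Robo receptors, the semaphorins with their plexin and neuropilin receptors, and the netrins with the receptors Dcc and Unc5a to Unc5d. Members were taken by symbol, as the protein-coding RefSeq genes of mouse build mm10 with these family names, which gave 69 genes of 21627 on the autosomes and the X chromosome. Marked here means that at least 1 bp of a peak lay within 1 kb of the gene's start or end.

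Guidance cues steer growing axons and migrating cells. Netrins and Slits are secreted cues read by Dcc, Unc5 and Robo receptors. Ephrins are bound to the cell surface and signal on contact to Eph receptor tyrosine kinases. Semaphorins signal through plexins, with neuropilins as co-receptors for most of the secreted class. Outside the nervous system the same molecules act in blood vessels and epithelia, and Eph receptors and ephrins are expressed in the epidermis. Developmental regulators that a lineage does not use are classical Polycomb targets.

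Basal cells of the interfollicular epidermis had been sorted from back skin at postnatal day 0 as EpCAM-positive, Sca1-positive cells with high α6-integrin, and each immunoprecipitation used the same number of cells. Control cells were set beside cells of the genotype Ring1a/b 2KO, which lack Ring1a and Ring1b, the ubiquitin ligases of Polycomb repressive complex 1. Each genotype had 2 labelled H3K27me3 libraries and 1 list of called peaks, so differences between the genotypes have no replicate error and could not be tested. The titles of the 2KO libraries give H3K27me1, but the antibody label and the name of the peak list give H3K27me3, which is followed here. How the alleles were removed, and in which cells, is not given in the sources used here. The control list held 3631 peaks and the 2KO list 2340, with start and end positions and no height or score. Sequencing depth is unknown, so a gene without a peak is not a gene without the mark. In a list made from many cells, a lower signal in every cell and its loss from some cells cannot be told apart. The 10 basal epidermal progenitor markers, among them Krt5, Krt14 and Trp63, were marked in neither list. Of the dermal fibroblast markers 5 of 6 were marked in control cells, of the Merkel cell markers 4 of 5, of the endothelial markers 2 of 5, of the melanocyte markers 1 of 5, of the Schwann cell markers 1 of 4 and of the immune markers 0 of 4. In the 2KO list these counts were 3, 3, 2, 0, 1 and 2. Over all genes 10.1% were marked in the control list and 6.64% in the 2KO list. The Merkel cell markers Krt8 and Krt18 met the same 49.4 kb control peak.

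In control cells 22 of the 69 guidance genes were marked (31.9%, 95% Wilson interval 22.1 to 43.6), compared with 10.1% of all protein-coding genes. In 2KO cells 15 were marked (21.7%), compared with 6.64% of all genes. The genes marked in both lists were Dcc, Unc5c, Unc5d, Ntn1, Robo1, Robo3, Epha5, Epha10, Ephb1, Sema5b, Sema6b, Sema6c, Sema6d and Plxna4, 14 in all against a background of 5.59%. Marked in the control list only were Epha3, Epha8, Efna2, Slit3, Sema7a, Plxnc1, Nrp2 and Unc5b, which makes 8 against a background of 4.49%. Epha6 was the 1 gene marked in the 2KO list only (background 1.04%). Of the control-marked guidance genes 63.6% were thus marked in the 2KO list too (43.0 to 80.3), and over all genes this share was 55.5%, which lies inside that interval. Intervals cover counting error only. Counted anywhere in the gene or within 1 kb of it, 27 guidance genes had a control peak, and 17 of the 27 a 2KO peak as well (63.0%, compared with 56.9% over all genes). Such a count favours long genes, and the guidance genes had a median length of 46.3 kb, compared with 17.3 kb over all genes.

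In control cells 14 of 34 receptor genes (41.2%, 26.4 to 57.8) and 8 of 35 ligand genes (22.9%, 12.1 to 39.0) were marked, with intervals that overlap. Over all genes this share was 10.1%. The shares also marked in 2KO cells were 64.3% of the receptors (9 of 14) and 62.5% of the ligands (5 of 8), compared with 55.5% over all genes. By family, 4 of 5 netrin receptors (37.6 to 96.4) and 2 of 4 Robo receptors (15.0 to 85.0) were marked in control cells. The EphA receptors had 4 of 9 (18.9 to 73.3) and the membrane-bound semaphorins 5 of 13 (17.7 to 64.5). These intervals overlap, so the families are not ranked. None of the 7 secreted semaphorins and none of the 3 ephrin-B genes was marked in either list. Over all genes only 10.1% were marked in the control list and 6.64% in the 2KO list. With so few genes, no trait of these families is read from their zeros.

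**Figure D1:**
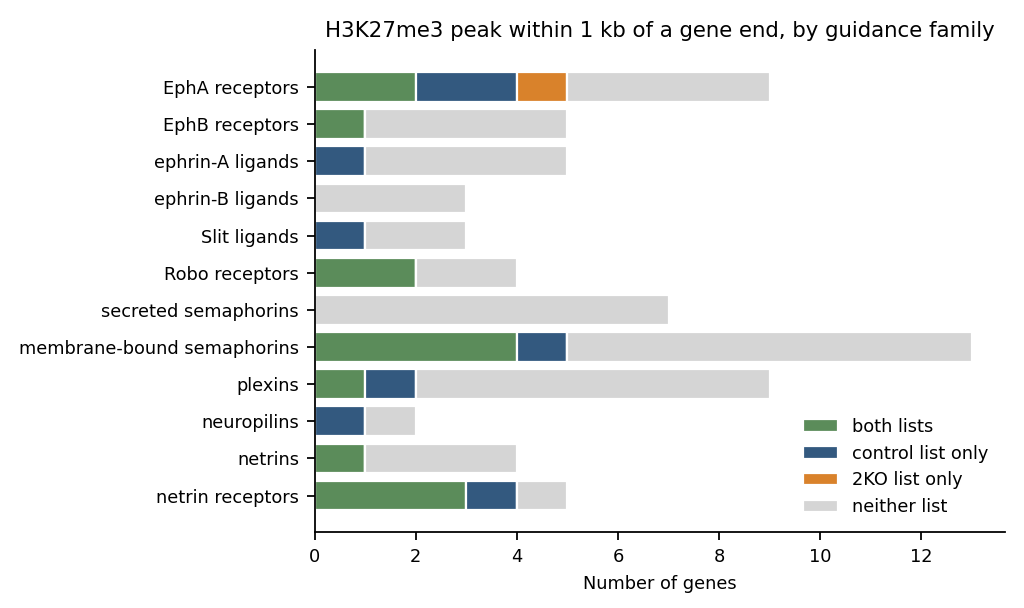
Number of genes (horizontal axis) in each guidance family by whether an H3K27me3 peak lay within 1 kb of a gene end in both lists, the control list only, the 2KO list only or neither. Membrane-bound semaphorins and netrin receptors hold 4 and 3 of the 14 genes marked in both lists, whereas the 7 secreted semaphorins lie wholly in the neither class. Of all 21627 protein-coding genes, 19222 are in the neither class.

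The 22 control peaks at ends of guidance genes had a median width of 6351.5 bp (1298 to 22600 bp), compared with 5450.5 bp over the 2010 control peaks at ends of any protein-coding gene. The 15 2KO peaks had a median of 5411 bp, compared with 6444 bp over all 1322. The control and 2KO medians are not of the same genes. At the 14 genes marked in both lists, the widest peak was wider in 2KO cells at 9 and narrower at 5. Over the 1210 such genes of all, these counts were 681 and 529. By bases, 49.3% of the control peak length at guidance genes lay under 2KO peaks, and 55.5% at all genes. A rough interval of 30.7 to 69.3 treats each of the 22 peaks as wholly covered or not covered. Several were covered in part, so it is not an interval for a share of bases. No difference from all genes is read from these shares. The Ntn1 peak alone made up 22.6 of the 153 kb of control peak length at guidance genes, and 15.5% of that peak was covered. In the other direction 80.2% of the 2KO peak length lay under control peaks, compared with 78.3% at all genes. The median control peak was 7.25 kb wide at the 14 genes marked in both lists and 5.32 kb at the 8 of the control list only, with ranges that overlap (1.89 to 22.6 and 1.30 to 10.5 kb). All genes showed the same order, with 6.72 and 4.55 kb.

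**Figure D2:**
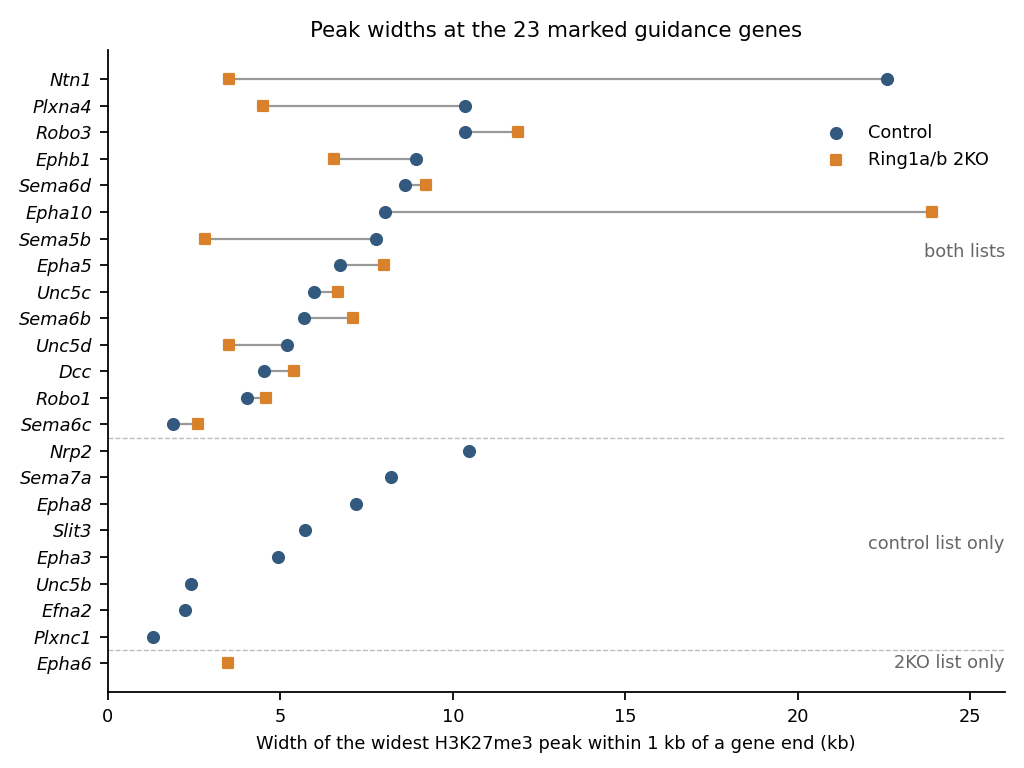
Width in kb (horizontal axis) of the widest H3K27me3 peak within 1 kb of a gene end at each of the 23 marked guidance genes, as circles for control and squares for Ring1a/b 2KO cells, joined where both lists hold a peak. The widths differ most at Ntn1 (22.6 and 3.51 kb) and Epha10 (8.04 and 23.9 kb), and among genes of the control list only Nrp2 has the widest peak (10.5 kb).

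Promoters of 6 genes are printed because they form pairs of close relatives with different fates in the lists: the Eph receptors Epha3 (control only) and Epha5 (both lists), the neuropilins Nrp1 (neither) and Nrp2 (control only), and the netrin receptors Unc5b (control only) and Unc5c (both lists). Each is the stretch of 250 bases before the annotated start, 5′ to 3′ in the direction of the gene, taken from RefSeq (build GRCm38.p6, the same build as mm10). Capitals mark CpG dinucleotides, since CpG-rich promoters are known sites of Polycomb binding in mammals. The positions are chr16:63864176-63864425 (minus strand) for Epha3, chr5:84417383-84417632 (minus) for Epha5, chr8:128358823-128359072 (plus) for Nrp1, chr1:62703067-62703316 (plus) for Nrp2, chr10:60831582-60831831 (minus) for Unc5b and chr3:141465314-141465563 (plus) for Unc5c.
Epha3: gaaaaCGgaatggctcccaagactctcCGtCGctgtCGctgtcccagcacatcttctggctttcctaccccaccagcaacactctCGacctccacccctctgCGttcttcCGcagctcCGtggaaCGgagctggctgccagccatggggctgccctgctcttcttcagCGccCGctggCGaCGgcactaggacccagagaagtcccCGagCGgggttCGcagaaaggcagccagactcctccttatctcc
Epha5: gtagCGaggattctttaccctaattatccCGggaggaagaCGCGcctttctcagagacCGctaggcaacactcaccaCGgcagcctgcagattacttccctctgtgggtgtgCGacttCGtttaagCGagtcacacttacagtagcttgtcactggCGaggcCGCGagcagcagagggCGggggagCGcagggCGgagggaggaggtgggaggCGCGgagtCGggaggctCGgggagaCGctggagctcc
Nrp1: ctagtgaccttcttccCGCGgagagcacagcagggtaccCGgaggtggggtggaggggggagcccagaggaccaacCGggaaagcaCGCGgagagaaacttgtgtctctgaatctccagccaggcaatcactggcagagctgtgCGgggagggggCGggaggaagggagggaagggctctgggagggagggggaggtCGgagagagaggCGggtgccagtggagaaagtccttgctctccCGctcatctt
Nrp2: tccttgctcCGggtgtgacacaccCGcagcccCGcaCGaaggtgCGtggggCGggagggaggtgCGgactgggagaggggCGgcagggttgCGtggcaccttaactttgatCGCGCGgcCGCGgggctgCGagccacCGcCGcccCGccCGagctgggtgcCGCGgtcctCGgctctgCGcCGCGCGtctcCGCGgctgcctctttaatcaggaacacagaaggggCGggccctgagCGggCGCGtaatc
Unc5b: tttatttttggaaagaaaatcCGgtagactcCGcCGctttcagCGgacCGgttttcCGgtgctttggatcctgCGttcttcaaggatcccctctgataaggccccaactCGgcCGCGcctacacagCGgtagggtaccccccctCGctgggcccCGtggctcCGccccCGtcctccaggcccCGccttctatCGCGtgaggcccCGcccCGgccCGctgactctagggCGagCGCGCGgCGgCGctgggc
Unc5c: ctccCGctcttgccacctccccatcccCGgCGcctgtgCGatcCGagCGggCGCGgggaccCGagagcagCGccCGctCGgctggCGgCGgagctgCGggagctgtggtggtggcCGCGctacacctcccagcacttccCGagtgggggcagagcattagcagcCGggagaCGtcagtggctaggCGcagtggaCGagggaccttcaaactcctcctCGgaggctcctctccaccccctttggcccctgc
These stretches held 16 CpG dinucleotides at Epha3, 20 at Epha5, 11 at Nrp1, 32 at Nrp2, 27 at Unc5b and 23 at Unc5c. Nrp2 and Epha5, marked in more lists than their relatives, have more CpG dinucleotides than Nrp1 and Epha3, whereas Unc5c, marked in both lists, has fewer than Unc5b. The printed Unc5b stretch itself lies under no peak, since the control peak lies 680 bp before the annotated start.

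Every netrin receptor gene had a control peak in or near it. Dcc encodes the receptor through which netrin-1 attracts axons, and the Unc5 genes encode receptors that mediate repulsion. In control cells all 5 had a peak in the gene or within 1 kb of it, compared with 11.7% of all genes, and in 2KO cells Dcc, Unc5c and Unc5d did, against a background of 7.82%. Such a count favours long genes, and the median length was 369 kb for these 5, compared with 17.3 kb over all genes. At Unc5c the control peak spanned 141461715 to 141467686 on chromosome 3 (5.97 kb) and the 2KO peak 141461803 to 141468479 (6.68 kb), so 98.5% of the former lay under the latter. Both lay over the annotated start. At Dcc, a gene of 1097.6 kb, the 4.54 kb control peak at one gene end was covered to 99.7% by a 5.41 kb 2KO peak, while a 1.89 kb control peak inside the gene had no counterpart. At Unc5d the control peak measured 5.18 kb and the 2KO peak 3.51 kb, with 58.8% of the control bases covered, and the 2KO peak ended 807 bp short of the gene end.

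Unc5b and Unc5a had control peaks and no 2KO peak. Unc5b, a receptor best known from endothelial cells, had a 2.42 kb control peak that lay wholly outside the gene, 680 bp before its annotated start, and the nearest 2KO peak was 787 kb from that peak. At Unc5a control peaks of 3.72 and 3.16 kb lay inside the gene. The first covered the annotated start at position 54949411 of chromosome 13, but it lay beyond the 1 kb window, since the table places the outer gene end further upstream, so Unc5a counted as unmarked. The nearest 2KO peak was 31 kb from the gene.

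Among the netrin ligands Ntn1 was the 1 gene of 4 marked, and 10.1% of all genes were marked in the control list. Ntn1 encodes netrin-1, the ligand of Dcc and the Unc5 receptors. Its control peak was the widest at any guidance gene, 22.6 kb from 68380412 to 68403011 on chromosome 11, with 6.42 kb of it inside the gene. The 2KO peak measured 3.51 kb (68382795 to 68386306), lay inside the gene and covered 15.5% of the control domain. Ntn3, Ntn4 and Ntn5 had no peak within 1 kb, and the nearest control peaks were 275, 81.4 and 3.63 kb away.

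The Slit ligands, repellents that act through Robo receptors, counted as marked in 1 of 3 cases, but all 3 genes held control peaks. Over all genes 11.7% had a control peak in the gene or within 1 kb. The Slit genes are long, however, with a median of 326 kb compared with 17.3 kb over all genes. At Slit3 (587.1 kb long) 5 separate control peaks covered 29.8 kb of the gene. The peak over its annotated start (5.71 kb) and 3 further peaks of 6.69, 5.45 and 6.68 kb in the middle of the gene had no 2KO counterpart. The fifth, of 6.96 kb at 35539927 to 35546887 on chromosome 11, was covered to 99.0% by a 2KO peak of 7.06 kb. At Slit2 a 5.64 kb control peak began 111 bp after the annotated start, and no 2KO peak lay within 291 kb of the gene. At Slit1 a control peak of 8.29 kb, from 41736363 to 41744655 on chromosome 19, was covered to 97.2% by a 2KO peak of 8.38 kb, and the 2KO list held 2 more peaks inside the gene, of 2.22 and 2.45 kb, that had no control counterpart. The called length in the gene thus went from 29.8 to 7.06 kb at Slit3, from 5.64 to 0 kb at Slit2 and from 8.29 to 13.1 kb at Slit1.

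**Figure D3:**
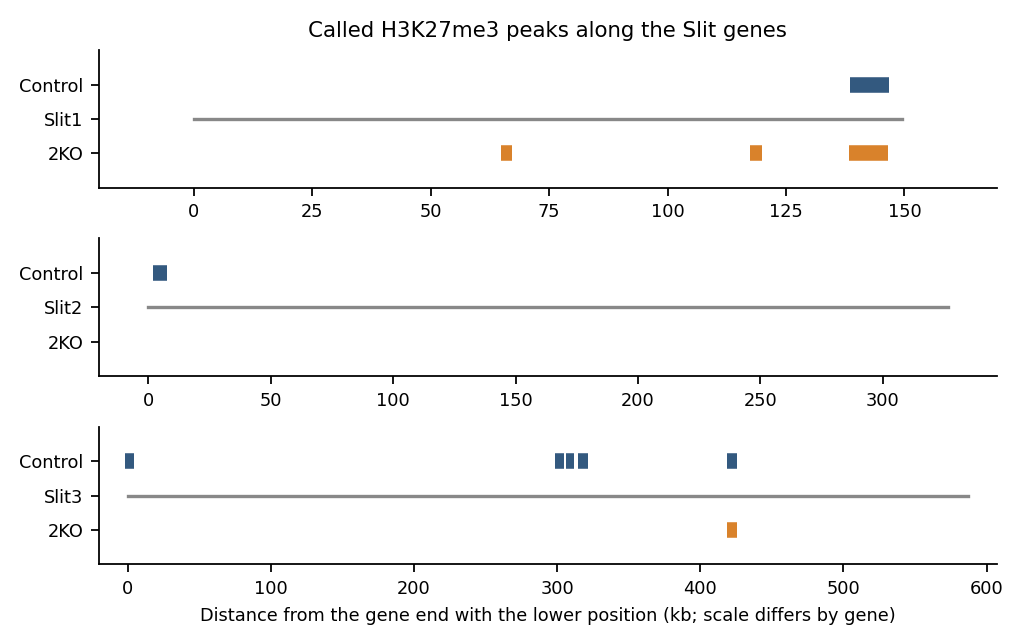
Called H3K27me3 peaks along Slit1, Slit2 and Slit3 (grey line), with distance in kb from the gene end that has the lower position and a scale that differs by gene; control peaks are above the gene and Ring1a/b 2KO peaks below. Slit1 keeps its 8.29 kb peak and has 2 more in 2KO cells, Slit2 has a control peak alone, and Slit3 keeps 1 of 5.

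Of the Robo receptors, Robo1 and Robo3 were marked in both lists with nearly the same extent. Robo3 controls midline crossing of commissural axons, and its 10.4 kb control peak over the annotated start was covered completely by an 11.9 kb 2KO peak. At Robo1 the peaks measured 4.04 and 4.58 kb and lay at the outer gene end; the annotated start in the promoter table is an internal one, 633120 bp away. Robo4, a receptor of endothelial cells next to Robo3, had no peak within 12.1 kb in the control list or within 10.8 kb in the 2KO list. Robo2 had none within 146 kb in control cells.

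Among the Eph genes, 4 of 9 EphA receptors, 1 of 5 EphB receptors and 1 of 8 ephrins were marked in control cells. Over all genes this share was 10.1%. Epha5, a receptor of topographic axon maps, had a 6.73 kb control and an 8.02 kb 2KO peak over its start, and 95.3% of the former was covered. These peaks also met an end of the predicted gene Gm42163. Epha10, a family member that lacks kinase activity, had 3 control peaks, of 8.04, 6.25 and 1.47 kb, and 1 2KO peak of 23.9 kb from 124878561 to 124902451 on chromosome 4 that covered all 3. Inside Epha10 the called length was 13.3 kb in the control list and 20.9 kb, or 57.7% of the gene, in the 2KO list. The peak at the start of Epha10 also met an end of Maneal.

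Epha3 and Epha8, also receptors of the developing nervous system, had control peaks over their starts, of 4.93 and 7.21 kb, with no 2KO peak within 1238 and 38.9 kb of them. Epha6 counted as marked in the 2KO list only, yet its marks lay far apart. A 4.28 kb control peak covered its annotated start (60605531 on chromosome 16), inside the outer gene end by more than the window, and had no 2KO counterpart. The 3.49 kb 2KO peak (59641425 to 59644915) lay at the 3′ end of the gene, 960616 bp from that start. At Epha7 a 3.70 kb control peak began 1326 bp after the nearer annotated start. It lay 1405 bp from the gene end, which placed it outside the window. In 2KO cells no peak lay within 3637 kb of the gene. Counted by a control peak in the gene or within 1 kb, 6 of 9 EphA genes were thus marked, and 3 of these had a 2KO peak there too. The matching shares over all genes were 11.7% and 56.9%, but the EphA genes had a median length of 148 kb, compared with 17.3 kb. The 3 without any peak were Epha1, Epha2 and Epha4, of which Epha2 is a receptor of keratinocytes.

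Of the EphB receptors, Ephb1 was the 1 of 5 with a peak. Its 8.94 kb control peak covered the start, whereas the 6.56 kb 2KO peak stopped 419 bp short of it on the gene side, with 72.2% of the control bases covered. Ephb2, Ephb3, Ephb4 and Ephb6 had no control peak within 59.7 kb. Of the 8 ephrin genes, Efna2 was marked, by a 2.23 kb control peak at its 3′ end with 131 bp inside the gene, 10398 bp from the annotated start. It had no 2KO counterpart. The other ephrins lay 41.0 to 2890 kb from the nearest control peak.

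Of the semaphorins, 0 of 7 secreted and 5 of 13 membrane-bound genes were marked in control cells, compared with 10.1% of all genes. The 7 secreted class 3 genes, Sema3a to Sema3g, lay 193 to 2656 kb from the nearest control peak, with a median of 1497 kb. Over the 42 guidance genes without any peak in the gene or within 1 kb, these 7 included, this median was 259 kb. Sema3a, Sema3c, Sema3d and Sema3e lie between positions 12383161 and 17730268 of chromosome 5. Sema3b and Sema3f lie close to each other on chromosome 9. The 7 distances are therefore not separate observations, and no trait of the class is read from them. Among the membrane-bound genes, none of the 6 class 4 members was marked, nor were Sema5a and Sema6a, whereas Sema5b, Sema6b, Sema6c and Sema6d were marked in both lists. Sema6d, a transmembrane ligand of plexin-A1, had a control peak of 8.62 kb and a 2KO peak of 9.23 kb over its upstream start (124085841 to 124094465 and 124086116 to 124095344 on chromosome 2), and 96.8% of the former was covered. Sema5b kept only the upstream part of its domain. The 7.76 kb control peak covered the start, and the 2.83 kb 2KO peak lay inside this domain but outside the gene, 1187 bp before the annotated start.

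At Sema6b and Sema6c the peaks lay at the 3′ end of the gene and away from the starts. The Sema6b peaks (5.70 and 7.11 kb) also met ends of Lrg1, and in 2KO cells of Plin5, so they cannot be assigned to Sema6b alone. Those at Sema6c measured 1.89 and 2.61 kb and met no other gene end. Sema7a, the one semaphorin anchored by a lipid, had an 8.20 kb control peak over its start and no 2KO peak within 30.4 kb of it.

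Of the semaphorin receptors, 3 of 11 were marked in control cells, compared with 10.1% of all genes. Of 9 plexins, Plxna4, a receptor of nervous system semaphorins, was marked in both lists, with a 10.4 kb control peak of which a 4.50 kb 2KO peak covered 43.5%. Plxnc1, the plexin that binds Sema7a, had the narrowest control peak of all marked guidance genes, 1.30 kb, lying 321 bp before the annotated start and outside the gene. Plxnc1 and its ligand gene Sema7a were both in the control list only, a pair named after its values were seen. Other pairs differed in class, such as Slit3 (control only) with Robo1 and Robo3 (both lists). Sema6d (both lists) and Plxna1 (neither) differed too. Ntn1 shared its class with Dcc, Unc5c and Unc5d but not with Unc5a or Unc5b. The other 7 plexins had no peak, among them Plxnb2, a plexin of keratinocytes, at 6.04 kb from the nearest control peak. Nrp2 had a 10.5 kb control peak (62701446 to 62711918 on chromosome 1) over its start, and the nearest 2KO peak was 531 kb from it. Nrp1, the co-receptor of Sema3a, lay 2058 kb from any control peak.

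Since a gene also counted as marked by a peak at its 3′ end, the annotated starts themselves were also examined, a measure added after the data were seen. A RefSeq promoter entry was held for 59 of the 69 genes. In control cells 14 of these had a start under a peak (23.7%), compared with 7.87% of the 17273 genes with an entry. In 2KO cells 5 had one (background 4.65%): Epha5, Epha10, Robo3, Sema6d and Unc5c. These are 35.7% of the 14, and over all genes 51.9% of the control-covered starts were also covered in 2KO cells. No interval was computed for this share of 14 genes, so no difference from all genes is read from it. Robo1, marked in both lists at its outer gene end, is not among the 14. Its entry is an internal start, 633120 bp from the control peak. The 9 starts covered in control cells only were those of Epha3, Epha6, Epha8, Ephb1, Nrp2, Sema5b, Sema7a, Slit3 and Unc5a. At Ephb1 and Sema5b a 2KO peak remained nearby, 419 and 1187 bp away. Dcc, Ntn1, Plxna4 and Unc5d, all marked in both lists, had no entry and do not enter these counts.

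**Figure D4:**
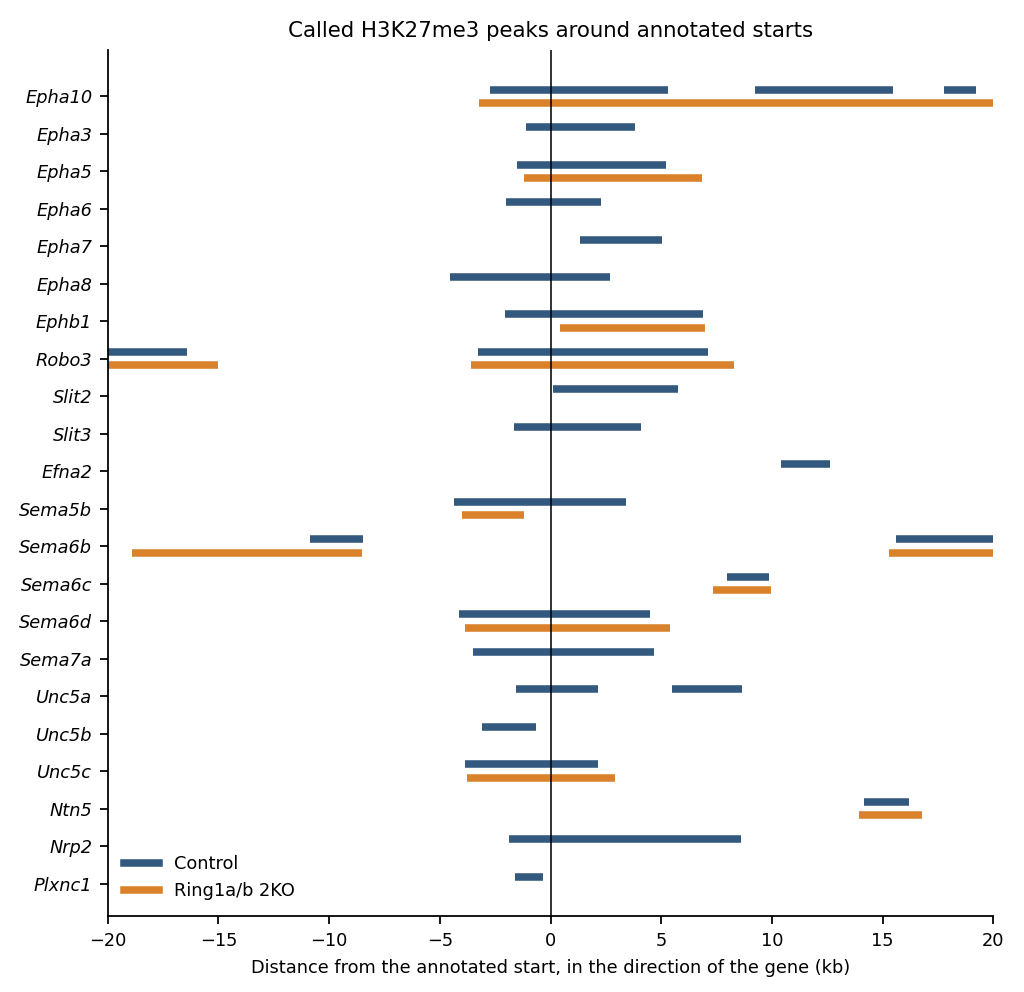
Called H3K27me3 peaks within 20 kb of the annotated start (vertical line) of the guidance genes that have any, drawn in the direction of the gene with distance in kb; control peaks are the upper and Ring1a/b 2KO peaks the lower bars, and bars are cut at the edges. Peaks of both lists lie over the start at Epha5, Epha10, Robo3, Sema6d and Unc5c, and a control peak alone at 9 genes.

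Of the 18 control-marked guidance genes with a known strand, 15 were marked at the 5′ end (83.3%), compared with 92.5% of all 1633 such genes. The 3 marked at the 3′ end alone were Efna2, Sema6b and Sema6c, all of them ligands. No 2 guidance genes shared a peak, and 3 of the 22 control peaks met an end of another protein-coding gene. The gene ends just inside it were those of Plxnc1 and Unc5b, 151 and 680 bp from a control peak, and those of Ephb1, Ntn1, Unc5d and Sema5b, 419, 520, 807 and 979 bp from a 2KO peak. The nearest outside it were those of Epha7 and Slit2, 1405 and 1975 bp from a control peak, followed by Slit1 at 2620 bp and Unc5a at 2677 bp.

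Promoter composition was read in the 300 bases from 250 before to 50 after the start. The 14 genes with a control peak over the start ranged from 14 CpG dinucleotides (Ephb1 and Sema6d) to 56 (Epha8). The median was 21 at the 5 starts covered in both lists, 27 at the 9 covered in control cells only and 20 at the 45 covered in neither. These groups overlapped over most of their range. Unmarked genes included CpG-rich promoters such as those of Sema3c (42), Efna5 (38) and Efnb2 (35), as well as CpG-poor ones such as Robo4 and Sema3a (2 each). Entries were held for 79.9% of all protein-coding genes, under the 80% required for such a check, so a comparison of CpG content with all genes is void. The motif CACGTG (an E-box) was found in 6.78% of the guidance promoters and in 8.01% of all 17273. GGCGGGAA, an E2F-type site, was found in 1.69 and 2.98%, and CCATNTT, a YY1-type site, in 5.08 and 15.4%, each searched on both strands. The same limit on entries applies to these shares, which are a description of the promoters held and no comparison with all genes. No 2 of these motifs were merged where matches overlapped.

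**Figure D5:**
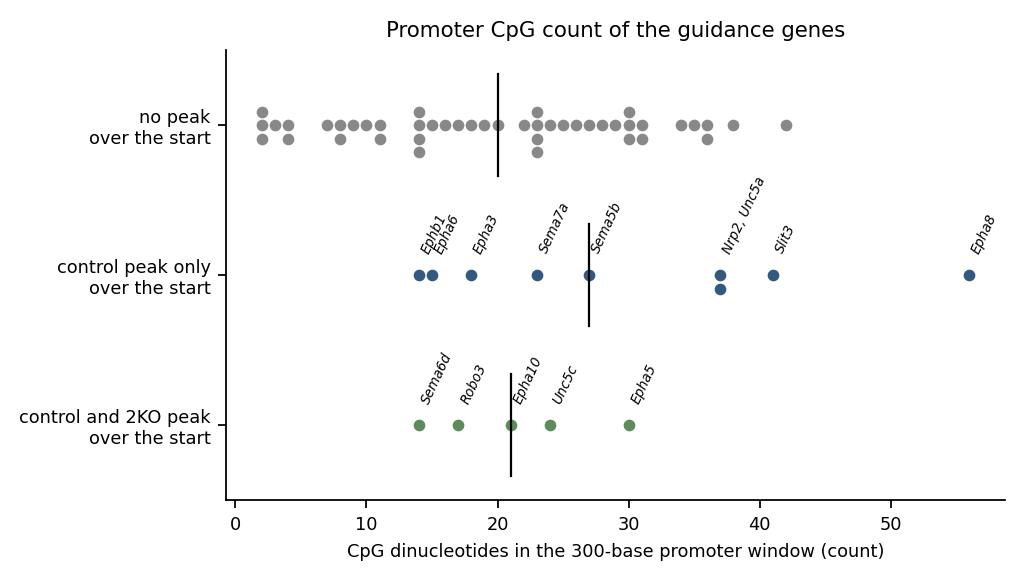
CpG dinucleotides per 300-base promoter window (horizontal axis, count) for the 59 guidance genes with a promoter entry, grouped by whether a peak of both lists, of the control list only or of neither lay over the start; each point is a gene and the vertical bars are medians. The groups overlap, with medians of 21, 27 and 20.

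Beyond these families, 75 other guidance genes were examined as a list. The control list marked 25 of them (33.3%), and the 2KO list marked 13 of those 25 (52.0%, 33.5 to 70.0), compared with 10.1% and 55.5% over all genes. Other cues and surface receptors made up 40 of the 75, with 16 marked in control cells, of which 9 also in 2KO cells. Rtn4rl2, which encodes a Nogo receptor homologue, had peaks of 15.7 and 16.5 kb. Lrrc4b (9.01 and 14.5 kb) and Celsr3, an atypical cadherin of axon tract formation (6.41 and 10.6 kb), had wider 2KO peaks. Ntng2, a netrin-G ligand anchored to the membrane, kept 24.7% of the bases of a 13.2 kb control peak. The control list alone marked Slitrk5 (11.6 kb), Slitrk3 (7.34 kb), Lingo1 (5.95 kb) and Cntn2 (5.26 kb), and the 2KO list alone marked Slitrk4 (5.16 kb).

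Among 35 intracellular effectors, which relay guidance signals to the cytoskeleton, 9 had the mark in control cells (25.7%, compared with 10.1% of all genes), and 4 of the 9 also had a peak in 2KO cells (44.4%, 18.9 to 73.3, an interval that holds the 55.5% of all genes). These 4 were Crmp1, Dpysl2 and Dpysl4, which encode collapsin response mediator proteins of semaphorin signalling, and Chn1, a Rac regulator downstream of Eph receptors. Their control peaks measured 4.22 to 6.99 kb and their 2KO peaks 4.94 to 7.41 kb. Fyn (5.38 kb), Chn2 (4.12 kb), Rnd1 (4.00 kb) and Dpysl5 (2.98 kb) were among the 5 of the control list only. At Rnd1 71.3% of the control peak lay under a 2KO peak that did not reach the gene end.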

How the data were processed

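H3K27me3 immunoprecipitates of control and Ring1a/b 2KO cells had been sequenced, with 2 labelled libraries per genotype. Input and Eed cKO libraries were not analysed here. Per the submitters' processing notes, the tools were Bowtie2 2.3.3.1 and SAMtools 1.9, on build mm10. For each genotype the authors deposited 1 list of peak positions, which holds no score or other measure. How peaks were called, at which threshold, with or without input, and whether replicates were pooled is not given in the sources used here. Either a laxer threshold or deeper sequencing of either genotype would lengthen its list.

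Peak starts, taken to count from 0, are printed counting from 1. Genes came from RefSeq (GRCm38.p6). Overlap required 1 bp. Strand and starts came from RefSeq promoter entries, held for 85.5% of the guidance genes. Counts and 95% Wilson intervals came from scipy 1.17.1, pandas 2.3.3 and numpy 2.4.6 under Python 3.11.15; matplotlib 3.10.9 drew the figures. Tested on simulated lists over 21627 genes, the overlap code recovered the class of 300 of 300 genes with a peak, with 0 false calls. The simulated peaks were centred inside the window, at genes with no other gene end near, so any correct code recovers them. The test therefore checks the code alone. It does not cover real peaks at the edge of the window or over ends of several genes.

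The gene families and lists were chosen with earlier results of these data known. Every guidance gene marked in either list is named; of other lists, up to 4 genes per class at the widest peaks. Genes named beyond this rule were chosen after their values were seen. Alternatives covered the window, the target at the gene, the overlap, peak width thresholds, equal numbers of peaks and merging of peaks.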

Additional observations from a re-analysis of the deposited data

How the results depend on the processing

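No paired analysis was possible because the peaks come as 1 list per genotype; leaving out a replicate was not possible either. Of 73 alternative values for 10 results, 62 stayed within 1.5 times the reported count or within the interval of the reported share. With the annotated start extended by 1 kb, for the genes that have an entry, 6 guidance genes were marked in 2KO cells and 6 in both lists, the share kept was 35.3% (6 of 17), and 0 were marked in the 2KO list only. With only peaks at least as wide as the median of their list, 7 were marked in 2KO cells, 7 in both lists and 0 in the 2KO list only. With equal numbers of the widest peaks (2340 each), 5 were in the control list only and 2 in the 2KO list only. With a window of 5 kb or the whole gene body, 0 were in the 2KO list only, since Epha6 then had a peak of both lists. With a window of 0 bp, the control list marked 20 and the 2KO list 10 of those (50.0%). Apart from the whole gene body, these settings were not run over all genes. No change is therefore read as particular to the guidance genes. The causes of the other changes were not tested. Depth is unknown, so the smallest enrichment that would have been called cannot be given.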
